A study of Mus musculus with 9 samples.

Results

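The genes described here are those of MHC class I and of the transport of its peptides: 6 class I heavy chains of the mouse H2 complex (H2-K1, H2-D1, H2-Q4, H2-Q7, H2-T22 and H2-T23), the light chain gene B2m, the transporter genes Tap1 and Tap2, and the transactivator gene Nlrc5. They were chosen by name, with earlier results of these data known. In the deposited count table each of the 10 had 1 row among 21899 genes. All mice were wild type, and RNA was sequenced from tissue labelled as paraventricular thalamus (PVT), which lies at the midline of the thalamus. The 9 libraries were 3 from mice given phosphate-buffered saline (PBS) 1 day earlier, 3 from mice given lipopolysaccharide (LPS), which comes from the outer membrane of bacteria and is sensed by Toll-like receptor 4, 1 day earlier, and 3 from mice given LPS 7 days earlier, in each case into the peritoneal cavity. The sources used here give no strain, age, sex or LPS dose, and no PBS group at 7 days was analysed here, so that day and treatment cannot be told apart where LPS at 7 days is set against PBS. The labels do not say that the replicates of a group were separate animals, so that p-values measure just the spread of these samples, and it may be technical.

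Class I molecules show short peptides from inside the cell to CD8 T cells and natural killer cells. A heavy chain binds the light chain beta-2 microglobulin in the endoplasmic reticulum and is loaded there with peptides that the TAP transporter, a dimer of the Tap1 and Tap2 products, carries in from the cytosol. In the resting brain class I transcripts are low, with endothelial cells and microglia among the known sources and with neurons that also make some. Interferons raise them, and Nlrc5, itself induced by interferon, assembles with RFX, CREB or ATF and NF-Y factors on the promoters of heavy chain genes, B2m and Tap1.

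The libraries held 13211422 to 17210526 gene counts. Levels are given as CPM (counts relative to the library total after TMM scaling, which corrects for library composition), or as FPKM (the deposited values, scaled by gene length and library size) where 1 gene is set against another. Y-linked genes and transcripts of other brain regions also separated the groups. Summed over 4 Y-linked genes the level was 0 to 0.0588 CPM in PBS, 81.5 to 85.2 CPM 1 day after LPS and 90.5 to 101.9 CPM at 7 days. The sum of 10 cerebellar marker genes was 322 to 335 CPM in PBS, 262 to 272 CPM 1 day after LPS and 1622 to 1653 CPM at 7 days. That of 10 PVT and midline thalamus markers was 602 to 618, 444 to 467 and 517 to 545 CPM, with none of the 10 at 0 in any group, and that of 9 striatal markers was 1576 to 1635, 997 to 1012 and 710.2 to 730.2 CPM. Values below thus belong to tissue that also held transcripts of other regions, and the part of these regional differences in the results was not tested. Y-linked transcripts were near 0 in every PBS library and present in every LPS library. In both comparisons with PBS this difference and LPS therefore cannot be told apart.

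On the GRCm39 assembly 8 of the genes lie on chromosome 17 between the start of H2-K1 and the end of H2-T22 (34214991 to 36353639, a span of 2138649 bases). H2-K1 (34214991 to 34219321, minus strand), Tap1 (34406527 to 34416199, plus strand) and Tap2 (34422501 to 34435295, plus strand) come first, with 6301 bases between the transporter genes. They are followed by H2-D1 (35481706 to 35486475), H2-Q4 (35598593 to 35604266) and H2-Q7 (35658131 to 35662749) on the plus strand, and by H2-T23 (36340665 to 36343747) and H2-T22 (36348020 to 36353639) on the minus strand, 4272 bases apart. B2m lies on chromosome 2 (121978167 to 121983564, plus strand) and Nlrc5 on chromosome 8 (95160984 to 95253900, plus strand).

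Promoter sequence was matched in the RefSeq table (GRCm38.p6, a different assembly from that of the counts) for 8 of the 10 genes, and 6 stretches are shown. They cover sites where class I factors are known to act. Of the elements marked, the stretch of H2-T23 holds an interferon response element alone. All 6 stretches have equal length and are written 5′ to 3′ on the strand of the gene. Those of H2-K1, H2-D1, H2-Q4, H2-Q7 and B2m end at a Y box, the inverted CCAAT element that NF-Y binds, and that of H2-T23 ends 41 bases before the start. Capitals mark matches to a kappa B element (GGGANTTCC, or GGGG, any base and TTCCC) and to an interferon response element. The latter is GAAA, any 2 bases and GAAA (on the opposite strand in H2-T23), or TTTCAC, any base and TCT. Capitals also mark TGAC followed after 20 or 21 bases by ATTGG, the start of the X2 box core (TGACG) with a Y box.
H2-K1 (chr17:34000359-34000483, minus strand): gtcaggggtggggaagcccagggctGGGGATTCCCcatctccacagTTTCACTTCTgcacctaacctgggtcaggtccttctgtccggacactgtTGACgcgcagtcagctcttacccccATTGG
H2-D1 (chr17:35262898-35263022, plus strand): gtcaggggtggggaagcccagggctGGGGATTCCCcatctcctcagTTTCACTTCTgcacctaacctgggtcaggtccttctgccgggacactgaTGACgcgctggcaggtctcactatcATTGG
H2-Q4 (chr17:35379418-35379542, plus strand): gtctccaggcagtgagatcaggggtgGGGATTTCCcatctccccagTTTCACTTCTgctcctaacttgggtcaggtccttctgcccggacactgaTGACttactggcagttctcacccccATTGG
H2-Q7 (chr17:35438995-35439119, plus strand): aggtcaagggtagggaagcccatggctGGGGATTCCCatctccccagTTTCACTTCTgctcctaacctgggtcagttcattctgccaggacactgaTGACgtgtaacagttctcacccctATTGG
B2m (chr2:122147514-122147638, plus strand): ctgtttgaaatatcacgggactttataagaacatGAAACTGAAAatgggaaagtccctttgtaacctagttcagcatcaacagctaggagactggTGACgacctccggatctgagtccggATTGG
H2-T23 (chr17:36032742-36032866, minus strand): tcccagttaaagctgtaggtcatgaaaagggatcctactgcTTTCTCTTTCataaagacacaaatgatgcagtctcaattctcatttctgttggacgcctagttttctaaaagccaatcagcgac

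H2-K1 and H2-D1 share a run of 47 identical bases before their starts, H2-Q4 and H2-Q7 a run of 34, and B2m shares no more than 9 with any other gene of the set. The X2 core with the Y box at this spacing lay in the 250 bases before the start of H2-K1, H2-D1, H2-Q4, H2-Q7 and B2m, 5 of the 8 genes, and in 0.363% of all 32544 promoters of that length in the table. The TTTCAC element was found in H2-K1, H2-D1, H2-Q4 and H2-Q7 (0.298% of all promoters), and the longer kappa B pattern in H2-K1, H2-D1 and H2-Q7 (0.461%). These 3 patterns were written after the sequences had been seen. Of the patterns written earlier, the doubled GAAA was found in H2-T22, H2-T23 and B2m (2.98% of all promoters), GGGANTTCC in H2-Q4 alone (1.44%), CCAAT in all 8 (33.8%), TGACG in 7, all but H2-T23 (17.8%), and TTCNNNGAA in none of the 8 (7.04%). Both strands were searched, TGACG can overlap the spaced pattern, and a match is a description of letters and not a binding site. No promoter was matched for Tap2 and Nlrc5. Those of Tap1 and H2-T22 were matched but are not shown, and of all these patterns Tap1 held CCAAT and TGACG alone.

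Class I heavy chains share stretches of sequence with each other and with other genes, which bears on how reads were counted. Of all 100-base windows of the protein-coding transcripts (GENCODE M21), the share found unchanged in a transcript of another gene was 17.2% for H2-Q7, 13.9% for H2-Q4, 12.4% for H2-T22, 7.28% for H2-T23, 4.09% for H2-D1 and 0% for H2-K1. With 50-base windows it was 34.9%, 39.2%, 43.9%, 29.8%, 13.9% and 6.87% in the same order. Matches on either strand of any other gene were counted, not of heavy chains alone. For H2-Q4, 188 of the 236 shared 100-base windows were shared with Gm11131, and others with genes such as Olfr204, Cd200r3 and Tyms. Sums over heavy chains do not cover sharing of that kind. For B2m and Nlrc5 both shares were 0%, and for Tap1 and Tap2 they were 3.71% and 5.07% of 100-base windows. The sources used here give neither read length nor the treatment of reads that match several genes, so levels of single heavy chains, above all those of the Q and T genes, are uncertain, and sums over heavy chains are given beside them.

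Per length, B2m had the highest level of the 10 genes in every group and H2-D1 came next. In PBS, B2m stood at 32.8 ± 1.91 FPKM (SD, n = 3), H2-D1 at 14.2 ± 1.11 FPKM and H2-K1 at 4.62 ± 0.494 FPKM, with no overlap between the libraries of these 3 genes. H2-T22 (3.06 ± 0.569 FPKM), H2-T23 (2.19 ± 0.125 FPKM) and Tap2 (1.33 ± 0.107 FPKM) followed, again without overlap. Tap1 (0.634 to 0.943 FPKM) and H2-Q4 (0.582 to 0.9 FPKM) overlapped, and Nlrc5 (0.18 ± 0.0885 FPKM) and H2-Q7 (0.0743 ± 0.019 FPKM) were lowest. At 1 day after LPS the middle of this order closed up: H2-T22 (4.86 to 5.52 FPKM), H2-T23 (4.2 to 5.17 FPKM), H2-Q4 (4.1 to 5.19 FPKM) and Tap1 (4.11 to 4.66 FPKM) came close to each other. Among these 4 genes the libraries of H2-T22 and Tap1 did not overlap, and those of the other pairs did. Tap2 (2.15 to 2.62 FPKM) lay under all 4 of them. FPKM values rest on the deposited gene lengths, which for Tap1 (5476 bases) and H2-Q7 (4265 bases) are longer than for H2-K1 (2938 bases).

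**Figure D1:**
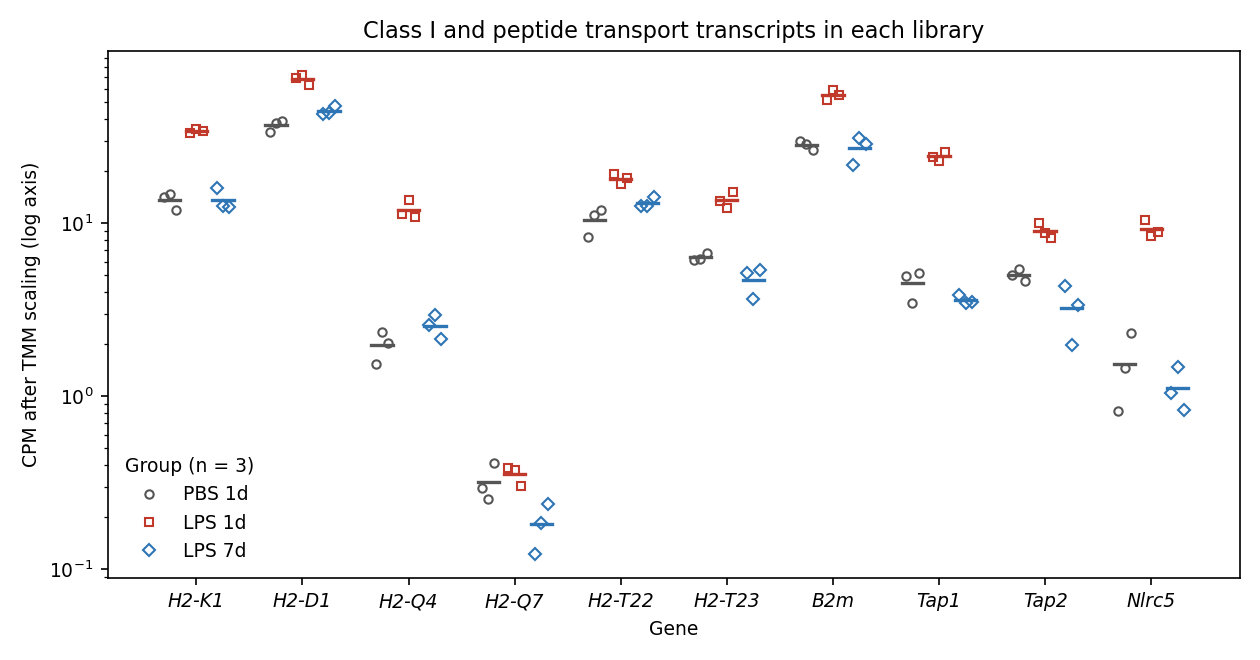
Level of each gene in each library, in CPM after TMM scaling on a log axis; points are libraries (3 per group) and bars the group means. All 9 genes that could be tested were called higher 1 day after LPS than in PBS, beside 24.9% of all 14837 genes tested. H2-Q7, which was not tested, stays under 0.409 CPM in every library.

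LPS was first set against PBS at 1 day, to ask how the tissue stood 1 day after LPS had been given. All 9 members that could be tested rose, by 1.73-fold to 6.13-fold. Heavy chains, light chain, both TAP subunits and the transactivator were thus all higher, and the steepest rises were those of Nlrc5, H2-Q4 and Tap1. In the same fit 24.9% of 14837 genes tested rose and 24.2% fell. The median log2 fold change was 1.11 over the 9 members against -0.01 over all genes tested. As the members were chosen with earlier results known, this contrast is a description and not a test of the set. The 9 calls were made by edgeR's quasi-likelihood test, with adjusted p from 1.11e-21 (Tap1) to 5.62e-05 (Tap2), and H2-Q7 was under the minimum for testing. In whole tissue more cells of a type and more RNA per cell cannot be told apart.

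The classical heavy chains H2-K1 and H2-D1 present peptides to CD8 T cells. H2-K1 had 14.2, 14.8 and 11.996 CPM in the PBS libraries, 33.5, 35.2 and 34.3 CPM 1 day after LPS and 16.0, 12.5 and 12.4 CPM at 7 days. The 1 day LPS libraries were all above the 6 others, and PBS and 7 days overlapped. The rise at 1 day was 2.51-fold (95% interval 2.2 to 2.86, log2 fold change 1.33 ± 0.10 SE, edgeR adjusted p = 1.03e-16). H2-D1, the most abundant heavy chain in each group, had 33.8, 37.8 and 38.9 CPM in PBS, 69.5, 72.3 and 62.7 CPM 1 day after LPS and 43.0, 43.5 and 47.5 CPM at 7 days. Here the 3 groups did not overlap, with 7 days between PBS and 1 day. H2-D1 rose 1.85-fold at 1 day (95% interval 1.69 to 2.03, log2 fold change 0.89 ± 0.07 SE, edgeR adjusted p = 4.37e-16).

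The nonclassical heavy chains are less variable between strains and have narrower roles. H2-Q4 had 1.53, 2.34 and 2.04 CPM in PBS, 11.3, 13.7 and 10.8 CPM 1 day after LPS and 2.57, 2.96 and 2.13 CPM at 7 days. The libraries at 1 day after LPS stood far above the 6 others, which overlapped. It rose 6.07-fold (95% interval 4.7 to 7.85, log2 fold change 2.60 ± 0.18 SE, edgeR adjusted p = 6.6e-17), the steepest rise of a heavy chain. H2-T23 encodes Qa-1, which shows leader peptides of other class I chains to the natural killer receptor CD94/NKG2A. Its levels were 6.11, 6.2 and 6.75 CPM in PBS, 13.5, 12.3 and 15.2 CPM 1 day after LPS and 5.15, 3.64 and 5.38 CPM at 7 days. All 3 libraries at 1 day after LPS lay above PBS, and all 3 at 7 days below it. The rise was 2.16-fold (95% interval 1.78 to 2.61, edgeR adjusted p = 2.72e-09). H2-T22, a chain that some gamma delta T cells recognise, had 8.34, 11.1 and 11.996 CPM in PBS, 19.2, 16.9 and 18.2 CPM 1 day after LPS and 12.6, 12.6 and 14.1 CPM at 7 days. As for H2-D1, the groups did not overlap and 7 days lay in the middle. It rose 1.73-fold (95% interval 1.48 to 2.03, edgeR adjusted p = 9.54e-08).

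H2-Q7 encodes the Qa-2 antigen and was close to the limit of detection. The PBS libraries held 5, 4 and 6 counts, those of LPS at 1 day 5, 6 and 5, and those of LPS at 7 days 2, 3 and 4. LPS at 1 day stood at 1.1 times PBS (95% counting interval 0.51 to 2.39, which covers counting error only), so that a change within these limits was not detectable at this depth. LPS at 7 days stood at 0.593 times PBS (0.229 to 1.45). In CPM, PBS and LPS at 1 day overlapped and the 7 day libraries (0.123 to 0.237 CPM) lay below both, within what counting error allows. H2-Q6, a neighbouring Q gene that shares sequence with H2-Q7 and was picked out after its values had been seen, had 7 counts over the PBS group, 34 over LPS at 1 day and 9 over LPS at 7 days.

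Summed over the 6 heavy chains, the level was 64.2, 72.6 and 72.1 CPM in PBS, 147, 151 and 142 CPM 1 day after LPS and 79.4, 75.5 and 81.8 CPM at 7 days. This sum does not depend on how reads were split among these 6 genes. It does depend on reads that were discarded or given to other genes, which the sources used here do not describe. The mean at 1 day was 2.1 times that of PBS, and the 7 day mean was 1.13 times that of PBS. With all 27 class I heavy chain rows of the H2 complex in the table the ratios were 1.98 and 1.1. H2-K1 and H2-D1 made up 72.5% of the 6-gene sum in PBS, 69.9% 1 day after LPS and 73.9% at 7 days.

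The light chain gene rose as well. B2m had 29.9, 28.7 and 26.4 CPM in PBS, 51.7, 59.2 and 55.5 CPM 1 day after LPS and 21.9, 31.1 and 28.7 CPM at 7 days. The libraries at 1 day after LPS were above all others, and those at 7 days spanned the PBS range on both sides. The rise at 1 day was 1.96-fold (95% interval 1.75 to 2.19, log2 fold change 0.97 ± 0.08 SE, edgeR adjusted p = 2.23e-14).

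The TAP subunits act as a pair, but their transcripts changed to different extents. Tap1 had 4.94, 3.48 and 5.18 CPM in PBS, 24.2, 22.9 and 25.99 CPM 1 day after LPS and 3.86, 3.46 and 3.49 CPM at 7 days. PBS and 7 days overlapped, and every library at 1 day after LPS was far above both. It rose 5.37-fold (95% interval 4.49 to 6.43, log2 fold change 2.43 ± 0.13 SE, edgeR adjusted p = 1.11e-21) and ranked 49 of 14837 genes by p-value. Tap2 had 5.05, 5.44 and 4.63 CPM in PBS, 10.097, 8.78 and 8.28 CPM 1 day after LPS and 4.35, 1.97 and 3.37 CPM at 7 days. The 7 day libraries all lay below PBS and the 1 day LPS libraries all above it. It rose 1.78-fold (95% interval 1.41 to 2.26, log2 fold change 0.83 ± 0.17 SE, edgeR adjusted p = 5.62e-05). Within single libraries the ratio of Tap1 to Tap2 counts was 0.977, 0.64 and 1.12 in PBS, 2.4, 2.6 and 3.14 at 1 day after LPS and 0.887, 1.75 and 1.04 at 7 days.

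Nlrc5 was the lowest of the tested members in PBS. Its levels were 0.823, 1.46 and 2.32 CPM in PBS (from 14, 23 and 34 counts), 10.48, 8.41 and 8.95 CPM at 1 day after LPS (136, 135 and 147 counts) and 1.04, 1.48 and 0.828 CPM at 7 days (17, 24 and 14 counts). The PBS libraries spread widely, with an SD of 49% of their mean, but the lowest LPS library at 1 day was above the highest of them. The rise was 6.13-fold (95% interval 4.46 to 8.41, log2 fold change 2.62 ± 0.23 SE, edgeR adjusted p = 7.89e-14). The lower limits of the intervals for Nlrc5, H2-Q4 and Tap1 were all above 2.86-fold, the highest upper limit of the other 6 tested members. Among these 3 genes the intervals overlapped, and without PBS replicate 1 the log2 fold change of Nlrc5 (2.30) was below that of H2-Q4 (2.44).

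**Figure D2:**
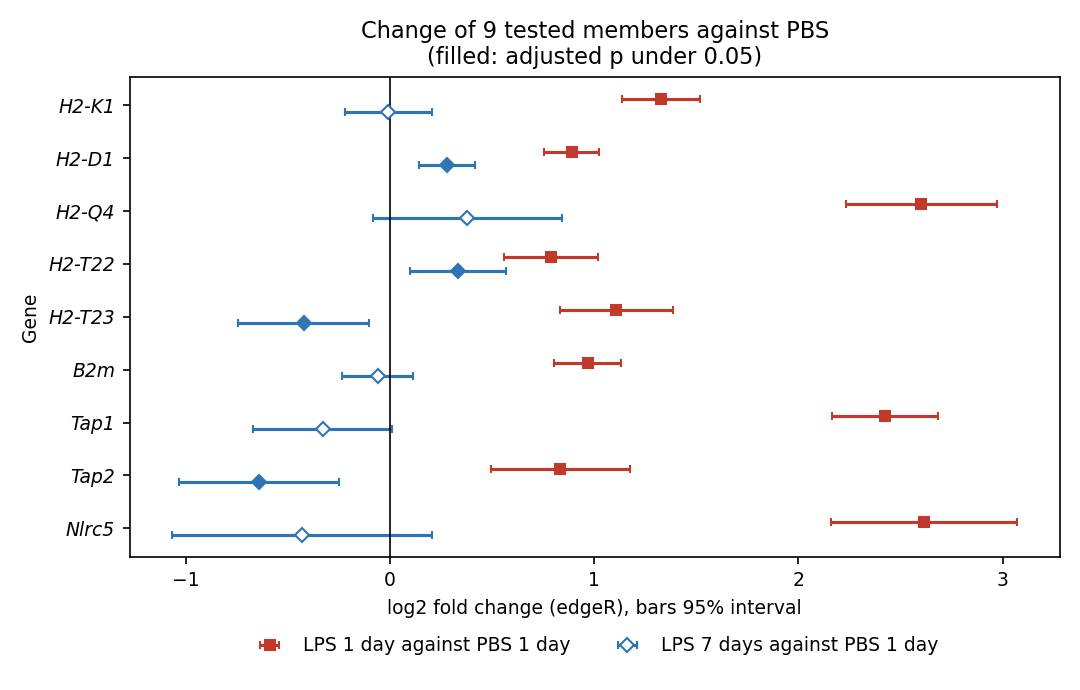
log2 fold change against PBS of the 9 tested genes (horizontal axis, edgeR, with 95% intervals), for LPS at 1 day (squares) and at 7 days (diamonds); filled symbols passed an adjusted p of 0.05. The 1 day values all lie above 0.5, with H2-Q4, Tap1 and Nlrc5 above 2, and the 7 day values lie between -0.64 and 0.38. Both comparisons use the same PBS libraries.

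Ratios between members within a library are free of library scaling. H2-K1 to H2-D1 was 0.419, 0.391 and 0.308 in PBS, 0.481, 0.487 and 0.546 at 1 day after LPS and 0.372, 0.288 and 0.26 at 7 days, so that the 1 day libraries lay above all others. B2m to the summed heavy chains was 0.466, 0.395 and 0.367 in PBS, 0.351, 0.392 and 0.392 at 1 day after LPS and 0.275, 0.412 and 0.351 at 7 days, and the groups overlapped. H2-T23 to H2-T22 was 0.732, 0.557 and 0.563 in PBS, 0.703, 0.731 and 0.836 at 1 day after LPS and 0.408, 0.288 and 0.381 at 7 days, when it was below every library of the other groups. On the log2 scale the Tap1 to Tap2 ratio was 1.603 higher 1 day after LPS than in PBS, that of H2-K1 to H2-D1 0.45 higher, and that of H2-T23 to H2-T22 at 7 days lower than in PBS by a difference of -0.79. For these 3 differences the groups did not overlap (two-sided exact permutation p = 0.1, as small as 3 against 3 can give, adjusted p = 0.2 over 12 ratio tests). For B2m to the heavy chains the difference at 1 day was -0.11 (exact permutation p = 0.4, adjusted p = 0.48).

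**Figure D3:**
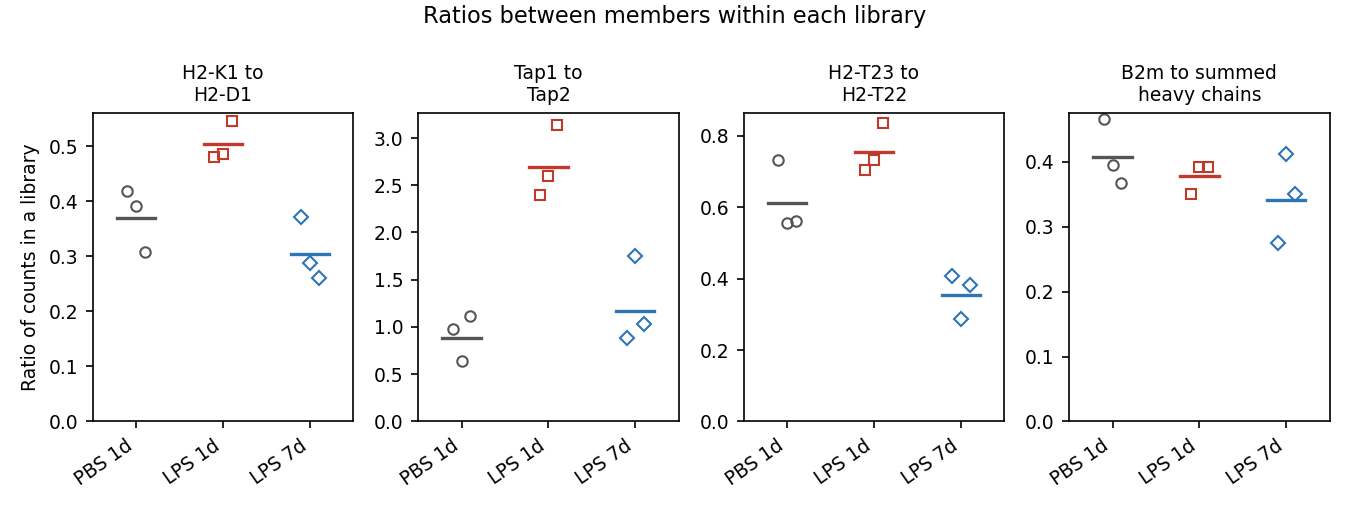
Ratio of the counts of 2 genes within each library, for 4 pairs; points are libraries (3 per group), bars the geometric means, and each vertical axis starts at 0. The Tap1 to Tap2 ratio is 2.4 to 3.14 in the 3 libraries taken 1 day after LPS and 1.75 or less in the others, and the H2-T23 to H2-T22 ratio is lowest at 7 days.

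Other genes of the class I pathway changed less uniformly 1 day after LPS. Over all genes tested 24.9% rose and 24.2% fell. In the list of 15 peptide loading and trimming genes the median log2 fold change was -0.08. Of these 4 rose (26.7%, close to the share of all genes), 6 fell (40%) and 5 did not pass. The smallest p-values in it were those of Tapbp (tapasin, which holds empty class I molecules at the TAP transporter), from 24.8 ± 0.576 to 43.9 ± 0.709 CPM (log2 fold change 0.82 ± 0.07, edgeR adjusted p = 1.12e-13), and Erap1 (which trims peptides in the endoplasmic reticulum), from 11.9 ± 0.763 to 17.3 ± 0.616 CPM (0.54 ± 0.10, edgeR adjusted p = 2.6e-05). The cytosolic peptidase gene Tpp2 rose by 0.23 ± 0.05 on the log2 scale. Of 6 genes of the immunoproteasome and its activator 2 rose and 4 did not pass (median 0.25). Psmb8 and Psmb10, catalytic subunits of the immunoproteasome, rose by 1.45 ± 0.53 and 0.27 ± 0.09 on the log2 scale, while Psmb9, the third of them and the neighbour of Tap1, was at 0.84 ± 0.37 (edgeR adjusted p = 0.0557). Psmb8 (0.335 CPM in PBS) and Psmb9 (0.886 CPM) were rare. Psmb8 had 16 counts over the PBS group, 42 over LPS at 1 day and 14 over LPS at 7 days. It met the minimum for testing mainly through the group where it was high, so its rise is in part set by that minimum. Of their 3 constitutive counterparts Psmb5 fell by 0.40 ± 0.16 and Psmb6 and Psmb7 did not pass (-0.04 ± 0.07 and 0.05 ± 0.07).

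Among 16 factors that act on class I promoters or with Nlrc5, 8 rose, 2 fell and 6 did not pass (median log2 fold change 0.23). These are 50% and 12.5%, beside 24.9% that rose and 24.2% that fell over all genes tested. Stat2 and Irf9, partners in the complex that interferons activate, rose by 1.21 ± 0.06 and 1.11 ± 0.09 on the log2 scale (edgeR adjusted p = 5.13e-23 and 2.11e-15). Against the direction of the list Nfya, the NF-Y subunit that binds the Y box, fell by 0.63 ± 0.09 and Rfxank, an RFX subunit, fell by 0.42 ± 0.13. Of 33 other class I heavy chain names 21 had a row and 4 could be tested, of which 2 rose. These were H2-M3, which presents formylated peptides (0.96 ± 0.30, edgeR adjusted p = 0.00658), and H2-T24 (0.48 ± 0.15, edgeR adjusted p = 0.00677), while H2-Q2 was at -0.58 ± 0.27 (edgeR adjusted p = 0.0675). In 7 tested class I-like genes outside the H2 complex 1 rose, 1 fell and 5 did not pass (median 0.16). Procr, the endothelial protein C receptor, rose by 1.17 ± 0.37 and Fcgrt, the heavy chain of the neonatal Fc receptor and a partner of beta-2 microglobulin, fell by 0.27 ± 0.12, while Mill2 was at -0.72 ± 0.32 (edgeR adjusted p = 0.0579).

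**Figure D4:**
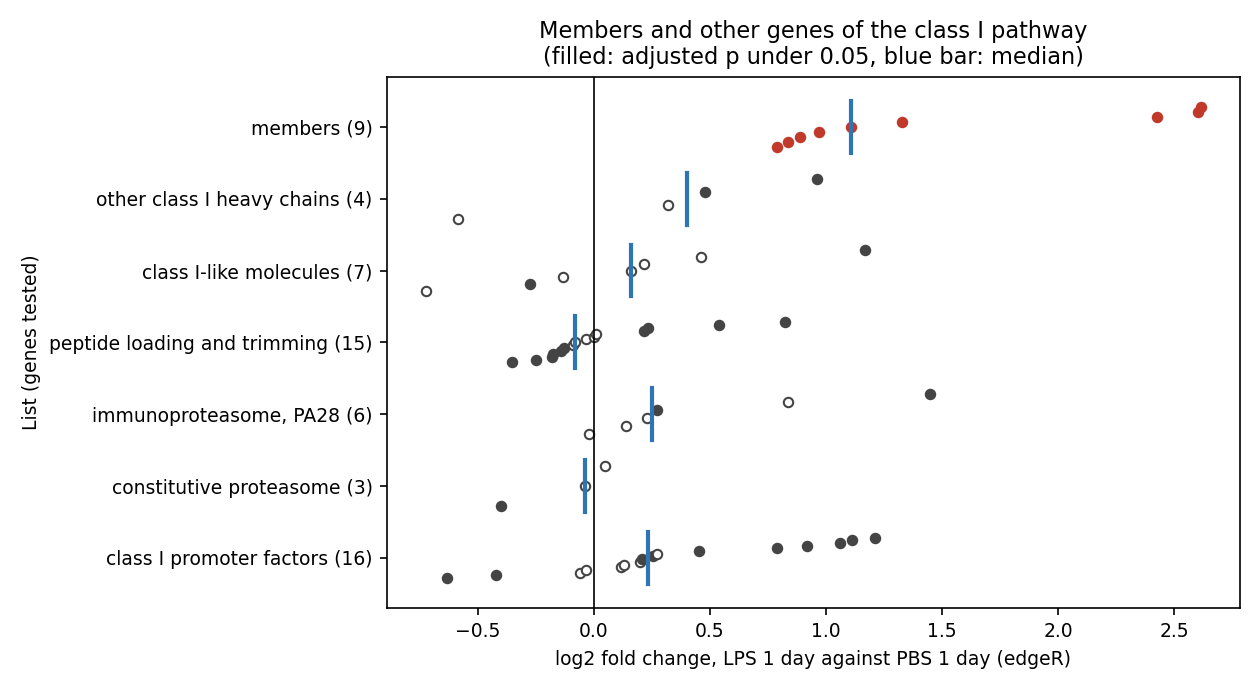
log2 fold change of LPS at 1 day against PBS (horizontal axis, edgeR) for each tested gene of 7 lists, with the number tested in brackets; filled points passed an adjusted p of 0.05 and blue bars are medians. All 9 members lie at 0.79 or above, while each of the other lists holds genes on both sides of 0.

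Receptors for class I molecules were rare in this tissue. None of 14 genes for class I receptors or for CD8 T and natural killer cells reached the minimum for testing in this tissue, and each of them had at most 4 counts over any group of 3 libraries. Of 6 listed neuronal and myeloid receptor genes, Pirb, a class I receptor of myeloid cells and neurons, was the 1 that could be tested. It went from 0.187 ± 0.124 to 1.1 ± 0.114 CPM (log2 fold change 2.49 ± 0.57, edgeR adjusted p = 0.000269). Pirb had 9 counts over the PBS group, 50 over LPS at 1 day and 20 over LPS at 7 days. It thus met the minimum for testing through the group where it was high, so its rise is in part set by that minimum. Lilrb4a of the same list, picked out after its values had been seen, was under the minimum for testing and had 2 counts over the PBS group, 26 over LPS at 1 day and 5 over LPS at 7 days.

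Genes that lie between the members were called about as often as other genes. Of the 76 other tested genes on chromosome 17 between H2-K1 and H2-T22, 16 (21.1%) rose and 14 (18.4%) fell 1 day after LPS (median log2 fold change 0.02), beside 24.9% and 24.2% of all genes.

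Markers of several cell types also differed between the groups. The sum of 12 microglial markers was 284 to 306 CPM in PBS, 330 to 350 CPM 1 day after LPS and 283 to 287 CPM at 7 days, with none at 0. These markers did not move together at 1 day: 4 rose, 2 fell and 6 did not pass (median log2 fold change 0.07). Over all genes tested 24.9% rose and 24.2% fell. C1qa, C1qb and C1qc, which encode a complement component, rose by 0.92, 1.19 and 1.05 on the log2 scale, while the homeostatic markers P2ry12 and Cx3cr1 fell by 1.03 and 0.26. For 12 endothelial markers the sums were 327 to 340, 372 to 384 and 390 to 399 CPM, with none at 0. Of these 7 rose, 4 fell and 1 did not pass at 1 day (median 0.34), from Ly6a at 2.44 and Cdh5 at 1.27 down to Slco1a4 at -0.54 and Itm2a at -1.01. For 8 fibroblast and meningeal markers the sums were 148 to 158, 216 to 227 and 160 to 172 CPM, with none at 0. Of the 7 tested, 6 rose and none fell at 1 day (median 0.70), and 5 were lower at 7 days than at 1 day. For 8 pericyte and smooth muscle markers the sums were 259 to 269, 280 to 291 and 381 to 394 CPM, and 4 of 7 tested rose at 1 day (median 0.24). The markers named here were picked after their values had been seen. For 9 T and natural killer cell markers the sums were 15.1 to 18.1, 8.64 to 10.59 and 4.72 to 5.37 CPM. Cd4 alone made up 16.3, 9.62 and 4.78 CPM of these in the group means, and Cd3d had no count in any library. The sums of 8 neutrophil markers were 10.43 to 11.8, 6.04 to 7.79 and 8.51 to 11.7 CPM. Csf3r alone made up 10.7, 6.78 and 9.73 CPM of these in the group means, and Ly6g and Elane, which define them, had no count in any library. The part of any of these cells in the rise of the class I genes was not tested.

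LPS at 7 days was then set against PBS, to ask what was left of these differences after 7 days. Of the 9 tested members 2 were higher (H2-D1 and H2-T22), 2 were lower (H2-T23 and Tap2) and 5 did not pass. Over all genes tested 16.8% were higher and 18.9% lower, so that the members were called about as often as other genes, and their median log2 fold change was -0.06. With library totals in place of TMM, the split over all genes turned from 2489 higher and 2798 lower to 3183 higher and 2326 lower. The same libraries differ in day, in Y-linked transcripts and in those of cerebellum, striatum and midline thalamus, as given above. Of 8 choroid plexus markers, 6 were lower at 7 days than in PBS and 2 did not pass.

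H2-D1 was 1.21 times its PBS level at 7 days (95% interval 1.1 to 1.34, edgeR adjusted p = 0.000872) and passed in each of 17 alternative settings. H2-T22 was at 1.26 times PBS (95% interval 1.07 to 1.48, edgeR adjusted p = 0.0219). H2-T23 was at 0.746 times PBS (95% interval 0.598 to 0.931, edgeR adjusted p = 0.0318), and Tap2 at 0.641 times PBS (95% interval 0.488 to 0.842, edgeR adjusted p = 0.00765). The last 3 calls were lost when certain libraries were left out. The log2 fold change of H2-T22 went from 0.33 to 0.19 without PBS replicate 1 (edgeR adjusted p = 0.267) and to 0.28 without LPS 7 day replicate 3 (edgeR adjusted p = 0.101). That of H2-T23 went from -0.42 to -0.44 without PBS replicate 2 (edgeR adjusted p = 0.0504), to -0.37 without PBS replicate 3 (edgeR adjusted p = 0.109) and to -0.27 without LPS 7 day replicate 2 (edgeR adjusted p = 0.237). The first of these left the size of the difference as it was. That of Tap2 went from -0.64 to -0.39 without LPS 7 day replicate 2 (edgeR adjusted p = 0.132), which held 32 Tap2 counts against 71 and 57 in the other libraries of its group. DESeq2 called H2-D1 and Tap2 and gave adjusted p = 0.054 for H2-T22 and 0.0741 for H2-T23.

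For the members that did not pass, the intervals show what size of difference from PBS these data allow. They were 0.859 to 1.15 times PBS for H2-K1, 0.85 to 1.08 for B2m, 0.943 to 1.79 for H2-Q4, 0.629 to 1.01 for Tap1 and 0.477 to 1.16 for Nlrc5. All of these upper limits are below the lower limits of the 1 day intervals of the same genes. Without PBS replicate 2, Tap1 passed as lower (log2 fold change -0.49, edgeR adjusted p = 0.0266). Of the 15 loading and trimming genes 5 were higher, 1 was lower and 9 did not pass, with Tapbp higher by 0.23 ± 0.08 on the log2 scale. Among 6 immunoproteasome and activator genes 0 were higher and 1 was lower. Over all genes tested 16.8% were higher and 18.9% lower. Of the 16 promoter factors 3 were higher and 1 lower, with Stat2 higher by 0.51 ± 0.06 (edgeR adjusted p = 1.11e-09) and Irf9 at 0.00 ± 0.09.

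The LPS groups were also compared with each other, to ask how the later day differed from the earlier one. This comparison shares its libraries with both of those above. The 2 LPS groups also differ in transcripts of other regions. At 7 days all 10 cerebellar markers were higher than at 1 day (median log2 fold change 4.03). Of 9 striatal markers 6 were lower, as were 6 of 8 choroid plexus markers. Day and these differences in tissue therefore cannot be told apart here. All 9 tested members were lower at 7 days, beside 29.1% of all genes lower and 27.5% higher. Nlrc5 was at 0.121 times its 1 day level (95% interval 0.087 to 0.169, edgeR adjusted p = 7.71e-16), Tap1 at 0.148 (0.123 to 0.178), H2-Q4 at 0.214 (0.168 to 0.273), H2-T23 at 0.346 (0.283 to 0.422) and Tap2 at 0.36 (0.279 to 0.463). H2-K1 stood at 0.397 (0.348 to 0.453), B2m at 0.49 (0.438 to 0.549), H2-D1 at 0.655 (0.599 to 0.717) and H2-T22 at 0.728 (0.625 to 0.848) of the 1 day level. The highest adjusted p of these 9 was that of H2-T22 (edgeR adjusted p = 0.000371), and H2-D1 and H2-T22 are also the genes called above PBS at 7 days. Between these days 7 of the loading and trimming genes were higher, 3 lower and 5 did not pass, and 4 of 6 immunoproteasome and activator genes were lower. Tapbp fell by 0.60 ± 0.07 and Erap1 fell by 0.58 ± 0.10 on the log2 scale.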

How the data were processed

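Trizol extraction and a TruSeq RNA kit were used on PVT tissue, per the labels. The authors deposited read counts per gene and FPKM. The submitters' processing notes name TopHat2, HISAT2, HTSeq and GRCm39; which made the alignments used, and the versions, strandedness and read length, cannot be read from the sources used here. The deposited FPKM followed from counts, gene lengths and library totals to within a relative 1.58e-07. The other deposited values, gene positions and lengths, were used unchanged.

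Of 21899 genes 14837 passed filterByExpr (minimum count 10). Counts of all 9 libraries were fitted with edgeR 4.0.16 quasi-likelihood (R 4.3.3, TMM, 1 mean per group), and the 3 comparisons were contrasts. Tests were two-sided with Benjamini-Hochberg adjustment over all genes tested, and a gene was called at adjusted p under 0.05. SE is the log2 fold change divided by the square root of F, and intervals use the moderated degrees of freedom (45.4 to 49.4), which lean on the spread of all genes. The method was tested on simulated counts. DESeq2 1.42.0 and other settings served as alternatives. Named genes are the 10 members and, per pathway list, up to 3 by p-value at 1 day and up to 2 called against the median of the list. Members and lists were chosen with earlier results of these data known.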

Additional observations from a re-analysis of the deposited data

How the results depend on the processing

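All 9 tested members kept their call and direction at 1 day against PBS and at 7 days against 1 day under DESeq2, RLE, upper-quartile and library total scaling, no filter, a stricter filter, the 2 groups alone, an adjusted p of 0.01 and without each library in turn. Against PBS at 7 days, 4 members were called, but 2 by DESeq2 (1 higher, 1 lower), 2 at an adjusted p of 0.01, and 2 to 4 when a library was left out, with 2 without LPS 7 day replicate 2; the cause was not tested. H2-K1 changed sign around 0 in that comparison without ever passing (log2 fold change -0.0069, but 0.033 with library totals, 0.00065 with DESeq2, 0.0024 without filter, 0.0068 with the stricter filter, 0.00074 with 2 groups, and -0.14 to 0.060 without single libraries), as did B2m (-0.16 to 0.075 without single libraries). H2-T23 did not pass with library totals (edgeR adjusted p = 0.0515). Same-numbered replicates had correlations of deviation near 0 (-0.0232 to 0.0270), beside -0.0399 to 0.0566 for other pairs. Between the LPS groups, though, same-numbered pairs were all slightly positive (0.0223 to 0.0261) and other pairs all slightly negative (-0.018 to -0.00672). The replicate block called 9, 4 and 9 members in the 3 comparisons and 7144, 5139 and 8270 genes (7289, 5287 and 8399 without it). No replicates agreed within sampling noise (2.01 to 3.62 chi-square per degree of freedom). Depth limits H2-Q7 in every group, H2-Q4 in PBS, and Nlrc5 both in PBS (71 counts over the group) and at 7 days after LPS (55 counts).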
